A study of Mus musculus with 27 samples.

Results

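Fibroblasts labelled Het-NTD were compared with fibroblasts labelled Het in experiment 2 of a bulk RNA sequencing series on Foxm1. The 6 libraries were taken by the names of their count columns, 3 for each label, out of 27 in the series. All were mouse embryonic fibroblasts, primary cells grown out of embryos, here of strain C57BL/6, at early passage, dividing without synchronisation and collected near 90% confluence. Het-NTD libraries carried both labels, and the Het libraries carried the Het label alone, so the comparison asks what NTD added on a Het background. The labels do not explain NTD, name no promoter or clone, and do not say which part of Foxm1 the Het label refers to. They also do not say whether replicates came from separate embryos or cultures, so the p-values rest on library-to-library spread alone, part of which may be technical. Libraries labelled WT-NTD and WT, 3 of each, belong to the same experiment and shared its fit.

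FoxM1 is a forkhead transcription factor that is made as cells enter the cycle and acts in G2 and mitosis. It is brought to many of its target promoters by the MuvB complex, which binds a short element called the cell cycle genes homology region (CHR). Its known targets include mitotic kinases, cyclins and parts of the spindle. Ect2, RhoA and mDia1 stand in the title of the series as well. Ect2 loads RhoA with GTP at cytokinesis, and the formin mDia1 then builds actin filaments.

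The 6 libraries held 36763426 to 46625753 counts each, and 16080 to 16445 genes had a count. Transcriptomes of the Het-NTD libraries lay close to each other, with a root mean square log2 distance of 0.321 to 0.362 between pairs, against 0.424 to 0.483 between pairs of Het libraries. Distances between a Het-NTD and a Het library were 0.414 to 0.47. Xist, the RNA that coats the inactive X chromosome, had 0.329, 0.341 and 0.382 CPM (counts brought to a common library size, with TMM scaling) in Het-NTD. It had 0.402, 544 and 498 CPM in Het libraries 1, 2 and 3. The Y-linked genes Ddx3y, Kdm5d, Eif2s3y and Uty summed to 133, 148 and 141 CPM in Het-NTD, against 138, 0.277 and 0.136 CPM in Het. All Het-NTD libraries and Het 1 therefore carried Y-linked transcripts and had little Xist, and Het 2 and Het 3 showed the reverse. Differences between these kinds of library and NTD can be told apart only in part. Without Het 1, every Het-NTD library differs in kind from every Het library. A fit with Y-linked transcripts as a covariate is given where it changed a call.

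**Figure D1:**
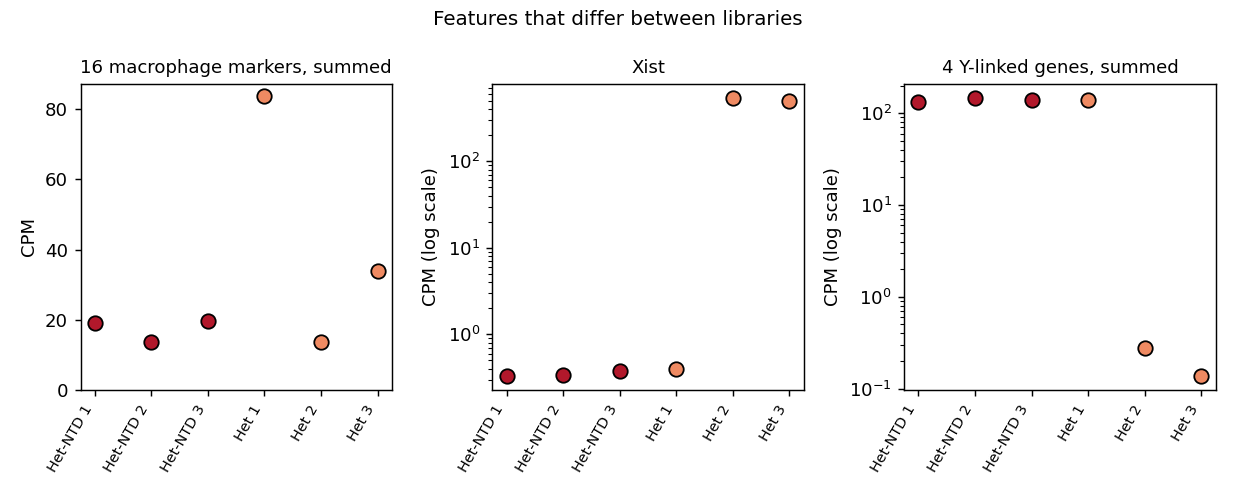
Summed CPM of 16 macrophage markers (linear axis), CPM of Xist and summed CPM of 4 Y-linked genes (log axes) in each Het-NTD and Het library, 1 point per library. Het 1 has the highest macrophage sum, 83.7 CPM, and groups with the Het-NTD libraries on Xist and the Y-linked genes.

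Foxm1, the gene the series is about, rose in Het-NTD. It had 351, 310.1 and 379 CPM in the Het-NTD libraries, against 126, 131 and 130 CPM in the Het libraries. The lowest Het-NTD value was far above the highest Het value. The mean was 347 ± 34.4 CPM in Het-NTD and 129 ± 2.63 CPM in Het (SD, n = 3 each), a 2.68-fold ratio with a 95% interval of 2.29 to 3.14. The log2 change was 1.42 ± 0.10 (SE, edgeR adjusted p = 0.000336). Het itself did not pass against WT, which had 144.6, 147 and 148.5 CPM (log2 change -0.18, Het minus WT, edgeR adjusted p = 0.249). Over 12 other settings the change in Het-NTD lay between 1.36 and 1.498 and passed in each. The gene lies on chromosome 6 from 128362967 to 128376146, plus strand (GRCm38, the assembly of mm10), and shares no exon base with another gene of the table in GENCODE M21. Its count covers the whole gene, so the exons behind the reads are not known. The nearest gene of the table on each side did not pass. Rhno1, a checkpoint gene on the minus strand whose start lies 56 bases from that of Foxm1, had 34.7, 33.6 and 31.7 CPM in Het-NTD, against 31.5, 30.8 and 31.7 CPM in Het (log2 change 0.09, edgeR adjusted p = 0.818). Nrip2, on the other side, was low, with means of 1.90 CPM in Het-NTD and 1.80 CPM in Het. Its log2 change was 0.07 with a wide interval (-0.408 to 0.555, edgeR adjusted p = 0.977).

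**Figure D2:**
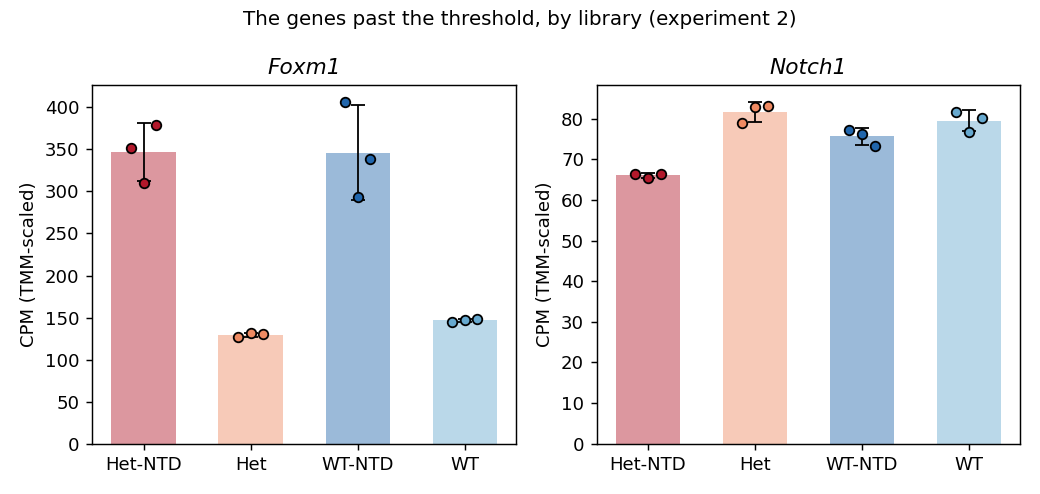
CPM of Foxm1 and Notch1 in each library of experiment 2 (points), with the group mean (bar) and SD (error bar), n = 3 per group. Foxm1 is higher in both NTD groups, at 347 CPM in Het-NTD against 129 CPM in Het, and Notch1 is lowest in Het-NTD, at 66.0 CPM against 81.7 CPM in Het.

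Notch1, a receptor that signals between neighbouring cells, fell in Het-NTD. It had 66.4, 65.4 and 66.3 CPM in Het-NTD, against 78.9, 82.9 and 83.2 CPM in Het. The groups did not overlap, and the spread within Het-NTD was under 1 CPM. The log2 change was -0.31 ± 0.04 (SE, edgeR adjusted p = 0.0322), a ratio of 0.808. The call was lost without any 1 of 5 libraries (edgeR adjusted p from 0.112 to 0.27). It was kept without Het 1 (edgeR adjusted p = 0.0436), which left only Het libraries with Xist. With the replicate number as a block it was lost (edgeR adjusted p = 0.134). It was also lost with Y-linked transcripts as a covariate (log2 change -0.28, edgeR adjusted p = 0.323). Notch1 lies on chromosome 2 from 26457903 to 26516663, minus strand. In the other groups of the experiment it had 75.6 CPM in WT-NTD and 79.5 CPM in WT. The other Notch genes did not pass. Of 17 tested receptors, ligands and targets, 1 fell (0.00699% of all genes fell) and none rose, 11 had a change below 0, and the median log2 change was -0.06. The target gene Hes1 had 36.9, 31.0 and 37.1 CPM in Het-NTD, against 33.1, 37.3 and 39.7 CPM in Het. The ligand Jag1 had 139, 118 and 140.2 CPM in Het-NTD and 98.2, 139 and 176 CPM in Het, so its Het libraries spanned the Het-NTD range. Hey1, another target, had 4.05 CPM in Het-NTD and 3.85 CPM in Het on average. The receptor Notch2 had a log2 change of -0.13 (edgeR adjusted p = 0.822).

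Foxm1 and Notch1 were the only genes called among 14314 tested, 0.014% of them, 1 higher and 1 lower (0.00699% each way). At an unadjusted p under 0.05 there were 896 genes (6.26%), 419 higher (2.93%) and 477 lower (3.33%), and DESeq2 called 23 genes, 6 higher and 17 lower, Xist among them. The median log2 change of all genes tested was 0.0012, and the median size of a change was 0.0762. Among 11506 genes whose average log2 CPM reached 1, the 95% interval lay within 1.5-fold either way for 10146 (88.2%) and within 2-fold for 11134 (96.8%). In the same fit, Het against WT called 2362 genes (16.5%) and WT-NTD against WT called 2.

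**Figure D3:**
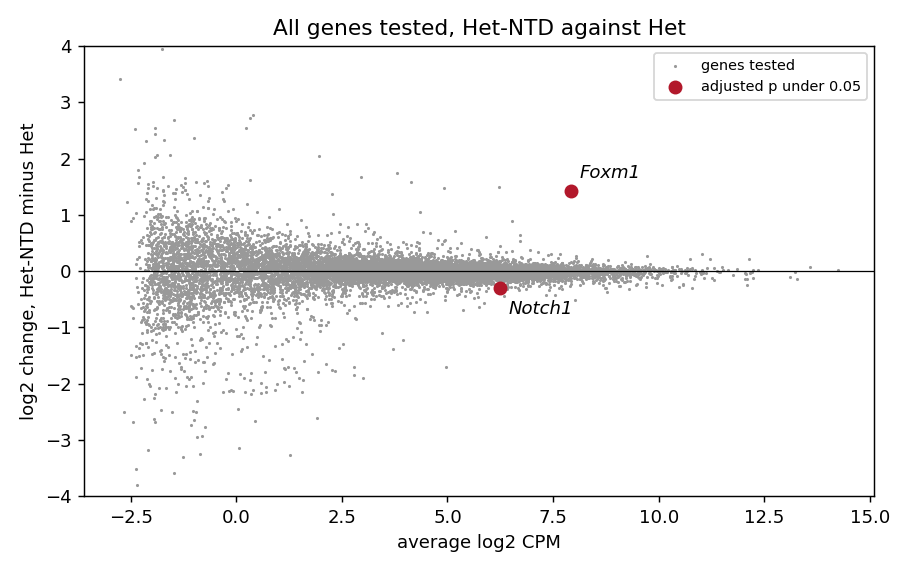
Log2 change (Het-NTD minus Het) against average log2 CPM for the genes tested, 1 point per gene, with genes past an edgeR adjusted p of 0.05 in red. Foxm1 stands at 1.42 and Notch1 at -0.31, and 8 genes lie outside the plotted range of 4 either way.

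The genes below the threshold with the lowest p-values were a mixed group. Car8, a carbonic anhydrase-related protein, had 0.399, 0.362 and 0.204 CPM in Het-NTD, against 1.396, 1.351 and 1.113 CPM in Het (log2 change -1.98, edgeR adjusted p = 0.142). Trim16, a ubiquitin ligase, had 38.8, 40.7 and 39.4 CPM in Het-NTD and 46.3, 46.1 and 46.5 CPM in Het (edgeR adjusted p = 0.503). Srd5a3, a polyprenol reductase of protein glycosylation, had 20.9, 21.2 and 20.7 CPM in Het-NTD and 17.11, 16.96 and 17.51 CPM in Het (edgeR adjusted p = 0.503). Stra6, a retinol transporter, was under 1 CPM in every library. In each of these genes the groups did not overlap. The same held for 1168 genes higher (8.16%) and 1166 lower (8.15%) in Het-NTD among all genes tested.

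Of those 11506 genes, 49 differed at least 2-fold, 11 higher and 38 lower, and Foxm1 was the 1 that passed. The average CPM was taken over all 12 libraries of experiment 2, so some of the 49 were near 0 in both groups. Lrrtm3 averaged 0.0326 CPM in Het-NTD and 0.0788 CPM in Het. The 5 genes that are Xist or Y-linked are among the 49, as are 11 of the 16 listed macrophage markers. The other genes of the 49 were not sorted by cell type. Macrophage genes outside the 16 listed may therefore be among them. In 25 of the 49, Het 1 lay outside the range of the other 5 libraries, and the Het-NTD libraries overlapped Het 2 and Het 3. In 14 of the 49, the Het-NTD and Het libraries did not overlap, against 8.16% of all genes higher and 8.15% lower. The 49 were chosen by their difference between these same libraries, so a larger share is built in. Fndc1, a fibronectin-domain protein chosen after its values were seen, was among those 14 and had 19.3, 17.8 and 20.9 CPM in Het-NTD, against 7.67, 9.73 and 10.6 CPM in Het (log2 change 1.06, edgeR adjusted p = 0.728).

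A fit of the 6 libraries alone called 20 genes and DESeq2 called 23, and 7 were called by both: Foxm1, Notch1, Car8, Ccl2, Gjb2, Atp10d and Map6. Gjb2, a gap junction protein, had 28.5, 31.6 and 25.4 CPM in Het-NTD, against 46.0, 41.7 and 44.9 CPM in Het (log2 change -0.63, edgeR adjusted p = 0.584 with 12 libraries). Atp10d, a lipid flippase, had 7.02, 7.64 and 7.69 CPM in Het-NTD and 13.4, 13.6 and 13.1 CPM in Het (log2 change -0.84, edgeR adjusted p = 0.584). Map6, which stabilises microtubules, had 65.5, 64.4 and 67.9 CPM in Het-NTD and 86.1, 77.6 and 78.0 CPM in Het (log2 change -0.29, edgeR adjusted p = 0.503). All of these but Foxm1 were lower in Het-NTD.

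Promoters of G2/M genes are where FoxM1 and MuvB are known to bind, and those of the 4 members with the lowest p-values are shown here, 300 bases each around the start, from RefSeq (GRCm38.p6). Capitals mark TTTGAA or TTCGAA on either strand, the core of the CHR.
Top2a (chr11:99024140-99024439, minus strand): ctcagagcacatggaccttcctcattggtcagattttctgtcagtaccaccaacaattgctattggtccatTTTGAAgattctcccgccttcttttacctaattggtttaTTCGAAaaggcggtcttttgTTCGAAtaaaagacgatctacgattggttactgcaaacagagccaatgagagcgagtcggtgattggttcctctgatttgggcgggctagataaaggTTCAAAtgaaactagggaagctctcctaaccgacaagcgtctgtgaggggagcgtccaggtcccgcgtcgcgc
Pttg1 (chr11:43425932-43426231, minus strand): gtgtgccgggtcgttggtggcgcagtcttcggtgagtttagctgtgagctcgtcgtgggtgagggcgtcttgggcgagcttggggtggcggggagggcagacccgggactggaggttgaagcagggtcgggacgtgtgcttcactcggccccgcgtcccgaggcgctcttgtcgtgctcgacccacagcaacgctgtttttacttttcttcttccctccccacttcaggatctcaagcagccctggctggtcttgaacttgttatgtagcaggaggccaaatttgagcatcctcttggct
Plk1 (chr7:122159185-122159484, plus strand): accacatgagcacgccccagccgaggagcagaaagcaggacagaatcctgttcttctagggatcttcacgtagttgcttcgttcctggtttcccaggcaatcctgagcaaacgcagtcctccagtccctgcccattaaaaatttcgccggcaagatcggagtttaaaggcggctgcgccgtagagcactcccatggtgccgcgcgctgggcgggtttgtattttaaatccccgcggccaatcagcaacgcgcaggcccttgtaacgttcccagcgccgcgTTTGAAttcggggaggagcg
Plk4 (chr3:40799701-40800000, plus strand): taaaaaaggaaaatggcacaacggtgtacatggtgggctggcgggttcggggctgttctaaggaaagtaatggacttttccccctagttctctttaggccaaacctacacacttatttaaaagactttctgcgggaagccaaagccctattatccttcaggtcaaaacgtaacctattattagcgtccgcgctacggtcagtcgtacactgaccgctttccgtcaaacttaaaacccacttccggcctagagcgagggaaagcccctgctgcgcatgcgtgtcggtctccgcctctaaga
Top2a has 4 matches and Plk1 has 1, and the windows of Pttg1 and Plk4 have none. Of 40 listed G2/M genes, 33 had a sequence, and 26 of their 34 promoters (76.5%) held a match. In all 32851 promoters the share was 19.2%. A match is a run of letters and not a measured site.

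No gene listed as a G2/M gene driven by FoxM1 was called. None of 40 passed the test, against 0.014% of all genes. Of the 40, 33 had a change above 0 and 7 below 0, with a median log2 change of 0.07; of all genes tested, 50.4% were above 0. The CPM of 14 were higher in Het-NTD without overlap, against 8.16% of all genes. The 95% interval lay within 1.5-fold for 39 and within 2-fold for all 40, while Foxm1 itself rose 2.68-fold. Top2a, which untangles DNA before mitosis, had 440.1, 499 and 465 CPM in Het-NTD, against 406, 413 and 409.5 CPM in Het (log2 change 0.19, edgeR adjusted p = 0.656). Plk1, a kinase of mitotic entry, had 112, 119.8 and 114 CPM in Het-NTD and 104, 97.6 and 96.6 CPM in Het (log2 change 0.21, edgeR adjusted p = 0.718). Pttg1, the securin that holds sister chromatids together, had 30.4, 31.1 and 28.6 CPM in Het-NTD and 20.9, 26.6 and 17.9 CPM in Het (log2 change 0.46, edgeR adjusted p = 0.699). Plk4, the kinase of centriole duplication, had a log2 change of 0.14. In these 4 genes the groups did not overlap, but none passed.

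Mki67, Cdc20 and Ccnb1, chosen after their values were seen, overlapped between the groups. Mki67, the marker of cycling cells, had 285, 319 and 295 CPM in Het-NTD, against 290.4, 306 and 302 CPM in Het. Cdc20, the activator of the anaphase-promoting complex, averaged 132 CPM in Het-NTD and 133 CPM in Het. Ccnb1, a mitotic cyclin, averaged 129 CPM in Het-NTD and 122 CPM in Het (log2 change 0.08). Without Het 1, which left only Het libraries with Xist, 30 of the 40 genes were above 0. With Y-linked transcripts as a covariate 29 were above 0. The same genes were lower in Het than in WT, where 28 fell (8.61% of all genes fell) and 1 rose (7.89% rose), with a median log2 change of -0.32. Both comparisons use the Het libraries, so they are not independent. The summed CPM of the list was 3777, 4040 and 3865 in Het-NTD and 3631, 3767 and 3629 in Het, against 4430 to 4573 in WT. On the WT background, where Foxm1 also rose with NTD, the median log2 change of the list was -0.04 (WT-NTD minus WT). In experiment 1 it was 0.03 (KO-NTD minus KO).

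**Figure D4:**
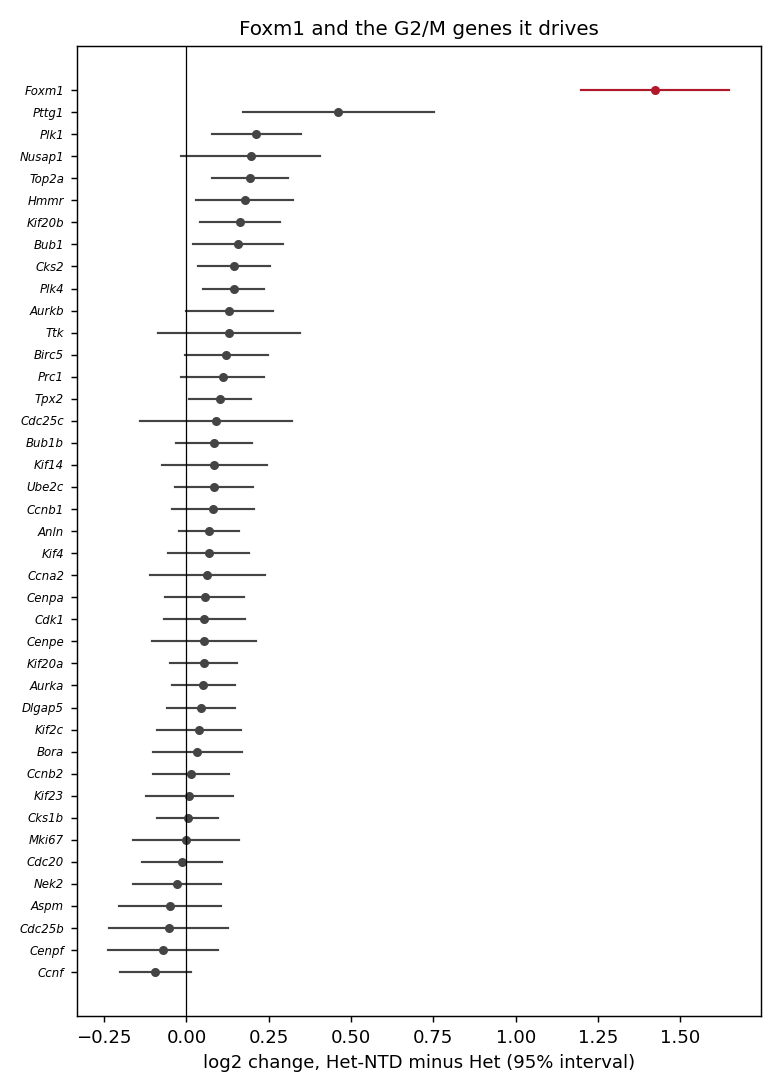
Log2 change (Het-NTD minus Het) with its 95% interval for Foxm1 (red) and the 40 genes listed as G2/M genes driven by FoxM1 (grey), ordered by change. Foxm1 lies at 1.42, and the G2/M genes lie between -0.09 (Ccnf) and 0.46 (Pttg1).

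Genes of other cycle stages also held no call apart from Foxm1. None of 35 genes listed as G1/S genes driven by E2F passed, 30 were above 0 and the median log2 change was 0.05. Rrm2, a subunit that makes deoxynucleotides, had 185, 192 and 189.8 CPM in Het-NTD and 175, 181 and 179.5 CPM in Het. None of 27 kinetochore and checkpoint genes passed (median 0.09). In the list of DREAM, MuvB and B-Myb genes, which hold or start this programme, Foxm1 was the 1 of 16 called. Lin9, the MuvB subunit, had a log2 change of 0.14 and Mybl2, which encodes B-Myb, of 0.05. None of 30 DNA repair genes passed (median 0.06).

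The 3 genes behind the other names in the title did not pass. Ect2 had 59.7, 64.6 and 59.7 CPM in Het-NTD, against 57.9, 61.8 and 56.0 CPM in Het, and the groups overlapped (log2 change 0.07, interval -0.10 to 0.23, edgeR adjusted p = 0.938). Rhoa had a log2 change of -0.02 (interval -0.09 to 0.05). Diap1, which encodes mDia1, had 56.4, 57.4 and 54.9 CPM in Het-NTD and 61.9, 56.5 and 60.9 CPM in Het (log2 change -0.09, interval -0.20 to 0.02, edgeR adjusted p = 0.842). Limk1, a kinase that stabilises actin filaments, had 36.4, 36.1 and 34.4 CPM in Het-NTD and 40.7, 43.4 and 40.5 CPM in Het (log2 change -0.22, edgeR adjusted p = 0.656). None of 26 actin, SRF and MRTF targets passed, and 19 were below 0 (median -0.04). Zyx, a focal adhesion protein, had a log2 change of -0.12. None of 24 YAP and TEAD targets passed (median -0.03). Ptpn14, a phosphatase of that pathway, had a log2 change of -0.20.

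Immediate early genes, which respond within minutes to growth factors, gave the lowest median of the 29 pathway lists, -0.17. None of 26 passed in edgeR, and 23 were below 0, against 49.5% of all genes. Without overlap 13 were lower in Het-NTD, against 8.15% of all genes, and 7 were lower at an unadjusted p under 0.05, against 3.33% of all genes. Egr3 had 12.7, 13.4 and 14.3 CPM in Het-NTD, against 23.1, 18.7 and 17.9 CPM in Het (log2 change -0.56, edgeR adjusted p = 0.525). Nr4a1 had 61.3, 56.4 and 57.5 CPM in Het-NTD and 74.4, 72.1 and 64.6 CPM in Het (log2 change -0.27, edgeR adjusted p = 0.525). DESeq2 called both (adjusted p = 0.0208 for Egr3 and 0.0435 for Nr4a1). Egr1 had a log2 change of -0.25 and Jun of -0.23. Without Het 1, which left only Het libraries with Xist, 25 of the 26 were below 0. On the other backgrounds the median log2 change of the list was nearer 0, at -0.04 for WT-NTD minus WT and -0.04 for KO-NTD minus KO in experiment 1.

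Among 33 glycolysis and hypoxia genes none passed, 29 were above 0, and the median log2 change was 0.10. Tpi1, a glycolytic enzyme, had 695, 694 and 666 CPM in Het-NTD and 646, 596 and 590.3 CPM in Het (log2 change 0.17, edgeR adjusted p = 0.735). Bnip3l, a mitophagy receptor, had 82.0, 83.0 and 78.5 CPM in Het-NTD and 72.8, 69.4 and 73.6 CPM in Het (log2 change 0.17, edgeR adjusted p = 0.584). With Y-linked transcripts as a covariate 25 were above 0.

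The lists of collagens and of matrix glycoproteins held no called gene. Among 22 collagens 11 were above and 11 below 0. Col18a1, which forms part of basement membranes, had 190, 160.1 and 186 CPM in Het-NTD, against 229.7, 225 and 225 CPM in Het (log2 change -0.34, edgeR adjusted p = 0.584). The basement membrane chains Col4a1 and Col4a2 had log2 changes of -0.25 each. Fn1, the gene of fibronectin, had a log2 change of -0.14. Of 33 interferon-stimulated genes 29 were above 0, with the highest median of the 29 pathway lists (0.18), and none passed. Ccl2, a chemokine, had 63.1, 66.3 and 70.1 CPM in Het-NTD and 84.4, 77.3 and 82.1 CPM in Het (log2 change -0.29, edgeR adjusted p = 0.525). Zim1, an imprinted gene, had 5.59, 4.85 and 5.40 CPM in Het-NTD and 3.12, 2.85 and 3.17 CPM in Het (log2 change 0.79, edgeR adjusted p = 0.584). Peg3, an imprinted neighbour of Zim1 on chromosome 7, had 128, 123 and 136 CPM in Het-NTD and 112, 107 and 115 CPM in Het (log2 change 0.21, edgeR adjusted p = 0.751). Dkk2, a Wnt antagonist, had 28.99, 27.08 and 26.88 CPM in Het-NTD and 46.6, 37.7 and 31.0 CPM in Het (log2 change -0.48, edgeR adjusted p = 0.751). Dlx2, a homeobox factor, had 1.83, 1.85 and 2.14 CPM in Het-NTD and 4.19, 3.08 and 2.95 CPM in Het (log2 change -0.81, edgeR adjusted p = 0.728). Wt1, a zinc finger factor of mesothelium, had 11.2, 11.7 and 9.86 CPM in Het-NTD and 4.52, 6.58 and 7.24 CPM in Het (log2 change 0.84, edgeR adjusted p = 0.584). Of the 6 mesothelial markers tested, Wt1 among them, 3 were above and 3 below 0, and Upk3b, another of them, had a log2 change of -0.54 (edgeR adjusted p = 0.758). Of the 29 pathway lists, 27 held no called member.

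**Figure D5:**
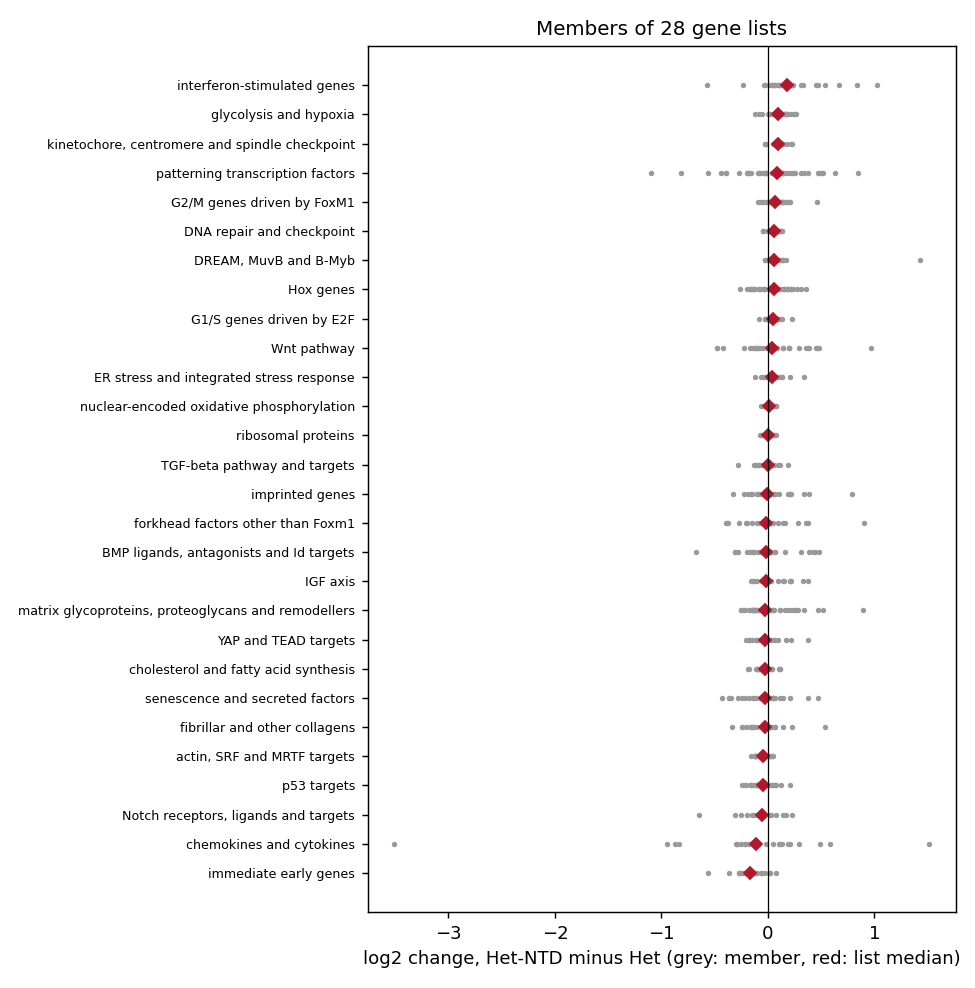
Log2 change (Het-NTD minus Het) of each tested member (grey points) and the median (red diamonds) for 28 of the 29 pathway lists, ordered by median. Medians lie between -0.17 (immediate early genes) and 0.18 (interferon-stimulated genes), and the point at 1.42 is Foxm1.

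Markers of other cell types were checked in the same libraries. The 11 fibroblast markers summed to 43880 to 47370 CPM in Het-NTD and 42480 to 45940 CPM in Het. Macrophage markers were rare but not absent: the 16 summed to 19.1, 13.7 and 19.8 CPM in Het-NTD, against 83.7, 13.6 and 33.8 CPM in Het, with no marker at 0. All 16 had a change below 0 (median -1.74, from -2.04 to -0.22), and none passed. At an unadjusted p under 0.05 (edgeR) 8 were lower, against 3.33% of all genes. The sums overlapped through Het 2, and 1 marker was lower without overlap, against 8.15% of all genes. Csf1r and Cd68, picked from the list after their values were seen, averaged 2.10 and 3.53 CPM in Het-NTD, and 4.48 and 4.09 CPM in Het. In bulk RNA, fewer cells of a type and less RNA per cell cannot be told apart. The part of macrophages in the other values was not tested. All 7 epithelial markers tested were above 0 (median 0.74), and they were rare: the list summed to 16.95, 11.03 and 20.25 CPM in Het-NTD, against 12.68, 10.0 and 9.685 CPM in Het. Of 6 endothelial markers 5 were below 0 (median -0.43), with sums of 11.76, 11.67 and 12.28 CPM in Het-NTD and 14.29, 14.61 and 11.72 CPM in Het. Of 10 skeletal muscle markers 8 were above 0 (median 0.43), with sums of 89.8, 75.4 and 102.3 CPM in Het-NTD and 92.7, 71.3 and 89.2 CPM in Het. Most of these sums came from Acta1 (log2 change -0.51) and Des (0.72), which moved in opposite directions. Des, Actc1 and Myh3 were higher without overlap, 3 of 10 against 8.16% of all genes. At an unadjusted p under 0.05 (edgeR) 2 of the 10 were higher, against 2.93% of all genes. Sums of these 3 lists overlapped between the groups, and their part in the other values was not tested. No marker of any of the 16 lists passed, and no T cell or B cell marker was high enough to be tested.

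The NTD effects on different backgrounds were compared as a difference of differences. For Foxm1 the NTD effect was a log2 change of 1.42 on the Het background and 1.24 on the WT background, a difference of 0.18 (interval -0.13 to 0.50, edgeR adjusted p = 0.903). Against KO-NTD and KO of experiment 1, where Foxm1 was the gene called (0.00687% of 14551, 1 higher), the difference in a joint fit was 0.10 (interval -0.17 to 0.37, edgeR adjusted p = 0.852). Both intervals include 0. Foxm1 counts were not lower in the libraries labelled KO, at 139, 148.7 and 151.7 CPM, against 133.5, 140.1 and 135.6 CPM in WT of experiment 1, so the counts do not check that label. For Notch1 the difference from WT was -0.23 (interval -0.36 to -0.11, edgeR adjusted p = 0.892). No gene passed in edgeR for WT (711 of 14314 at an unadjusted p under 0.05, 4.97%), and DESeq2 called 4. No gene passed for KO (950 of 14738, 6.45%). The lowest p against WT was that of Tnfrsf10b, a death receptor. It had 43.3, 44.8 and 48.0 CPM in Het-NTD and 54.0, 51.9 and 52.4 CPM in Het, and 60.5, 56.2 and 57.8 CPM in WT-NTD and 44.3, 46.2 and 50.5 CPM in WT. The difference of the effects was -0.53 (edgeR adjusted p = 0.259). Ucp2, a mitochondrial carrier, had 172, 166 and 159.6 CPM in Het-NTD, against 175, 159 and 168 CPM in Het, and averaged 11.8 CPM in WT-NTD and 16.7 CPM in WT.
The next lowest p-values against WT were those of Ucp2 (difference 0.48), Tnfrsf1b (0.48) and Tbc1d4 (1.22) above 0, and of Phyhip (-3.42) and Ptger4 (-0.52) below 0 (edgeR adjusted p = 0.892 each). Against KO they were those of Srd5a3 (0.43), 6720416L17Rik (1.92) and Lyrm5 (0.50) above 0, and of Dhx40 (-0.52), Nop9 (-0.31) and Papd7 (-0.24) below 0 (edgeR adjusted p = 0.737 each).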

How the data were processed

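Libraries came from about 200 ng of RNA each (TruSeq kit v2), per the labels' protocols. The authors deposited raw read counts for 24062 gene symbols. The submitters' processing notes name mm10, featureCounts 1.4.6, Subread, TopHat2 2.0.14 and Bowtie2 2.2.6. The annotation and strand setting are not given in the sources used here.

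The 12 libraries of experiment 2 (4 groups, 8 residual degrees of freedom) were fitted with edgeR 4.0.16 in R 4.3.3, using filterByExpr, TMM and robust two-sided quasi-likelihood tests. P-values were adjusted by Benjamini-Hochberg over 14314 genes (threshold 0.05). The 21 fibroblast libraries were fitted jointly for KO. DESeq2 1.42.0 was an alternative. The code was tested on simulated data. An exact permutation test of 3 against 3 cannot go below p = 0.1, so none was used.

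The members and gene lists (29 pathway, 16 marker) were chosen with earlier results of these data known. The result of 1 pathway list is not reported here. Named genes are those of the title, the called genes or the 3 lowest p-values each way, and at most 4 per list by p-value. Others (Mki67, Cdc20, Ccnb1, Ccnf, Hes1, Hey1, Jag1, Mybl2, Rhno1, Nrip2, Egr1, Jun, Fndc1, Lrrtm3, Gjb2, Atp10d, Map6, Csf1r, Cd68, Upk3b, Acta1 and sex-linked genes) were named after their values were seen. Without strand, reads of Cdc20, Rhoa, Zyx, Tpi1, Col4a1, Col4a2, Trim16, Fn1, Xist, Nrip2 and Ucp2 cannot be told apart from those of a gene that shares exon bases.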

Additional observations from a re-analysis of the deposited data

How the results depend on the processing

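Foxm1 kept its call under every setting tried (log2 change 1.36 to 1.498). The count of 2 genes called stayed at 2 with DESeq2 size factors and with no filter on low counts. It was 1 with the replicate block, 20 with only the 6 Het-NTD and Het libraries in the fit (6 higher, 14 lower), 23 with DESeq2 (6 higher, 17 lower), 1 with the presence of Y-linked transcripts as a covariate, which was chosen after seeing the data, and 1 to 3 when 1 library was left out. The 6-library fit and DESeq2 shared 7 genes. Calls among list members, 2 in the main fit, were 1 with the replicate block, 4 with 6 libraries, 5 with DESeq2, 1 with the covariate and 1 to 2 when 1 library was left out.

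The difference between the NTD effects on Het and WT called 0 genes, 4 with DESeq2 and 0 to 2 when 1 library was left out. Without Het 1 these were the ribosomal pseudogenes Rps15a-ps6 and Rps15a-ps4. Rps15a-ps4 had 3.90, 4.26 and 3.97 CPM in Het-NTD, against 4.24, 0.1 and 0.278 CPM in Het libraries 1, 2 and 3. Whether reads were shared with other genes was not tested. The difference from KO called 0, and 0 to 1 when 1 library was left out. Replicate numbers do not show that the Het-NTD and Het libraries are paired: correlations of same-numbered libraries were 0.024, 0.202 and 0.244. Het-NTD 2 and 3 carried Y-linked transcripts and Het 2 and 3 did not, so these same-numbered libraries were not from the same embryo. The block, which treats equal numbers as pairs, removed the call of Notch1 (edgeR adjusted p = 0.134). Same-numbered WT-NTD and WT libraries correlated at 0.393, 0.673 and 0.284, and with the replicate block the difference between the NTD effects on Het and WT again called 0 genes.

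Of 743 recomputed values of 62 single genes, 18 of 10 genes had a changed sign. None of the 10 had passed. With no filter Mki67 was 0.0015, and with the covariate Jag1 was 0.1899 and Tnfrsf1b was 0. Without 1 library, log2 changes ran from -0.0479 to 0.0351 for Mki67, -0.0259 to 0.0012 for Cdc20, -0.137 to 0.0126 for Hes1, -0.248 to 0.1597 for Jag1, -0.3095 to 0.4662 for Hey1, -0.0365 to 0.1711 for Nrip2, -6e-04 to 0.4533 for Tbc1d4, -0.0485 to 0.0177 for Ucp2 and -0.326 to 0.0048 for Cd68. The cause was not tested. With 3 libraries per group, the median half-width of an unadjusted 95% interval was 0.169 on the log2 scale among genes whose average log2 CPM reached 1. Larger changes than this also missed the adjusted threshold.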
